A study of Gallus gallus with 4 samples.

Results

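Peaks of acetylated histone H3 lysine 27 (H3K27ac) that also carried the promoter mark H3K4me3 and the repressive mark H3K27me3 were examined in otic-epibranchial progenitors (OEPs) of the chick, ectodermal cells that give rise to the ear and epibranchial placodes. An H3K27ac peak was chosen when it lay on a numbered chromosome and overlapped, by 1 bp or more, a peak of each of the other marks. The rule was met by 1599 of 43416 H3K27ac peaks on numbered chromosomes, or 3.68% (exact Clopper-Pearson 95% interval 3.51 to 3.86), and the whole H3K27ac list held 45426 peaks. These triple-marked peaks were divided into 1514 in which all 3 marks shared at least 1 bp, called coincident, and 85 in which H3K4me3 and H3K27me3 lay in different parts of the peak, called separated. Overlap between the 3 lists chose the members, so that all overlap shares are given as a description and without a test.

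OEP tissue was dissected by hand from chick embryos at 8 to 9 somites, for which no treatment is listed, with about 200 pieces of tissue per sample by the labels. Chromatin immunoprecipitation and sequencing (ChIPseq) gave 1 library each for H3K27ac, H3K4me3 and H3K27me3, with an input library that enters no comparison. The dissected territory also contains future neural and neural crest cells, and a weaker peak can reflect fewer cells with a mark or less of the mark per cell, which cannot be told apart. Read counts are not part of the peak lists, and the depth of each library is unknown. Intervals are for counting error alone, with each peak taken as an independent count, which neighbouring peaks are not. With 1 library per mark, no difference between classes of peaks has a replicate test.

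H3K27ac marks active enhancers and promoters, and H3K4me3 marks the start sites of transcribed or poised genes. H3K27me3 is laid down by Polycomb repressive complexes at silent developmental genes, and its coexistence with H3K4me3 is known as bivalency, a state first described in embryonic stem cells and common at genes that are held ready for later lineages. Acetyl and trimethyl groups cannot occupy the same lysine, and a single histone tail therefore carries either H3K27ac or H3K27me3. Peaks from pooled tissue do not separate neighbouring nucleosomes, the 2 copies of histone H3 in a nucleosome, the alleles or the cells from one another.

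In coincident peaks the marks lay on top of each other over a short stretch. The length under all 3 marks, summed over the stretches of a peak, measured 272 bp in the median (interval 266 to 279, quartiles 216 and 428, n = 1514) and ranged from 2 to 2863 bp. It took up 55.1% of the H3K27ac peak in the median, whereas H3K4me3 covered 82.4% and H3K27me3 83.2% of the peak. No H3K27ac peak was narrower than 251 bp and no H3K4me3 or H3K27me3 peak narrower than 229 or 233 bp, so the median shared stretch was little longer than the smallest peaks. In 192 coincident peaks (12.7%) the entire H3K27ac peak lay under both other marks. A further look at single marks showed 355 coincident peaks wholly inside H3K4me3 and 405 wholly inside H3K27me3, each count including those 192. Over all triple-marked peaks, 582.0 kb carried all 3 marks, which was 35.6% of their summed width of 1.63 Mb.

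No mark formed the core of the coincident peaks throughout. Each set of 1 H3K27ac, 1 H3K4me3 and 1 H3K27me3 peak with a common stretch was taken as a trio, and 1523 trios were found in the 1514 peaks. The shortest peak of the trio was that of H3K27ac in 494, of H3K4me3 in 505 and of H3K27me3 in 509 trios. The widest was H3K27ac in 593, H3K27me3 in 563 and H3K4me3 in 359 trios, with ties in the remaining 8. In 472 trios (31.0%, interval 28.7 to 33.4) the shared stretch was an entire peak of at least 1 mark. Of the triple-marked peaks, 1576 met a single H3K4me3 peak and 1582 a single H3K27me3 peak. In all they met 1617 distinct H3K4me3 and 1600 distinct H3K27me3 peaks, and only 6 of the former and 16 of the latter met more than 1 triple-marked peak.

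The trios ran from sets of narrow peaks to wide domains with a small common part. All 3 peaks were under 500 bp, a limit chosen after the widths had been seen, in 244 trios (16.02%). In these narrow trios the midpoints of the peaks lay within 42.2 bp of each other in the median, and within 100 bp in 190 of 244 (77.9%). Among the other 1279 trios the median was 468.5 bp, and 125 (9.77%) lay within 100 bp. Short peaks that must share a base cannot have midpoints far apart, and the largest distance in narrow trios was 359 bp. How much of this difference comes from the width limit and the overlap rule was not tested. Shared stretches of at least 1000 bp were found in 85 trios (5.58%) and stretches under 100 bp in 112 (7.35%).

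The 5 triple-marked peaks with the greatest length under all marks, summed over their stretches, are sites where 3 wide peaks coincided. That on chromosome 21 at 4465918 to 4470733 (GalGal6) measured 4816 bp, and 2863 bp of it were shared in 2 stretches of 2527 and 336 bp. The first stretch joined an H3K4me3 peak of 2527 bp to an H3K27me3 peak of 2763 bp. On chromosome 1 at 71099303 to 71101929, 2595 of 2627 bp were shared, with fold enrichments of 2.90 for H3K27ac, 4.75 for H3K4me3 and 4.99 for H3K27me3. Fold enrichment is the ratio of the library over local background, as given by the authors' peak caller for the whole peak. On chromosome 3 at 108239678 to 108242403, 2343 of 2726 bp were shared, and the H3K27me3 peak reached on to 9997 bp. On chromosome 1 at 115808685 to 115811016, all 2332 bp of the H3K27ac peak were shared, although its fold enrichment was only 1.49, and it lay inside H3K4me3 and H3K27me3 peaks of only 2387 and 2474 bp. On chromosome 15 at 12494230 to 12496312, all 2083 bp were shared, with a fold enrichment of 3.03 for H3K27ac, 5.55 for H3K4me3 and 6.17 for an H3K27me3 peak of 9155 bp. All of these sites but the first had a single peak of each other mark.

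Separated peaks were fewer and wider. Their median width was 1794 bp (interval 1355 to 2164, n = 85), against 696 bp (647 to 762, n = 1514) for coincident peaks. A wide peak has more room for 2 marks that do not meet, and whether this accounts for the difference was not tested. Among triple-marked peaks the separated share rose from 0% in the 3 narrowest deciles of H3K27ac width to 23.1% in the widest decile, above 2157 bp. The gap between H3K4me3 and H3K27me3 was 774 bp in the median (interval 580 to 873, range 9 to 7550 bp), or 44.5% of the peak. H3K4me3 covered 18.7% of the separated peak in the median and H3K27me3 20.2%. Both marks ran past an edge of the H3K27ac peak in 30 of 85, H3K4me3 alone in 20, H3K27me3 alone in 14, and both lay inside the peak in 21. The H3K4me3 peak was the wider of the pair in 58 of 85 (68.2%, interval 57.2 to 77.9), with medians of 499 bp for H3K4me3 and 338 bp for H3K27me3.

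The longest gap was found on chromosome 15 at 7728514 to 7737526, where 7550 bp of a 9013 bp H3K27ac peak lay between an H3K27me3 peak of 309 bp and an H3K4me3 peak of 274 bp. The next was on chromosome 6 at 12237961 to 12244555, with a gap of 3602 bp. The third, on chromosome 10 at 2986217 to 3005123, was the widest of all triple-marked peaks at 18907 bp, and its gap was 3017 bp. The others lay on chromosome 9 at 4636249 to 4643875 (gap 2550 bp) and on chromosome 17 at 10572790 to 10575806 (gap 2374 bp). In these 5 sites the other marks measured only 249 to 600 bp each. The fold enrichment of H3K27ac was between 3.12 and 3.75, and that of H3K27me3 between 2.39 and 3.10.

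**Figure D1:**
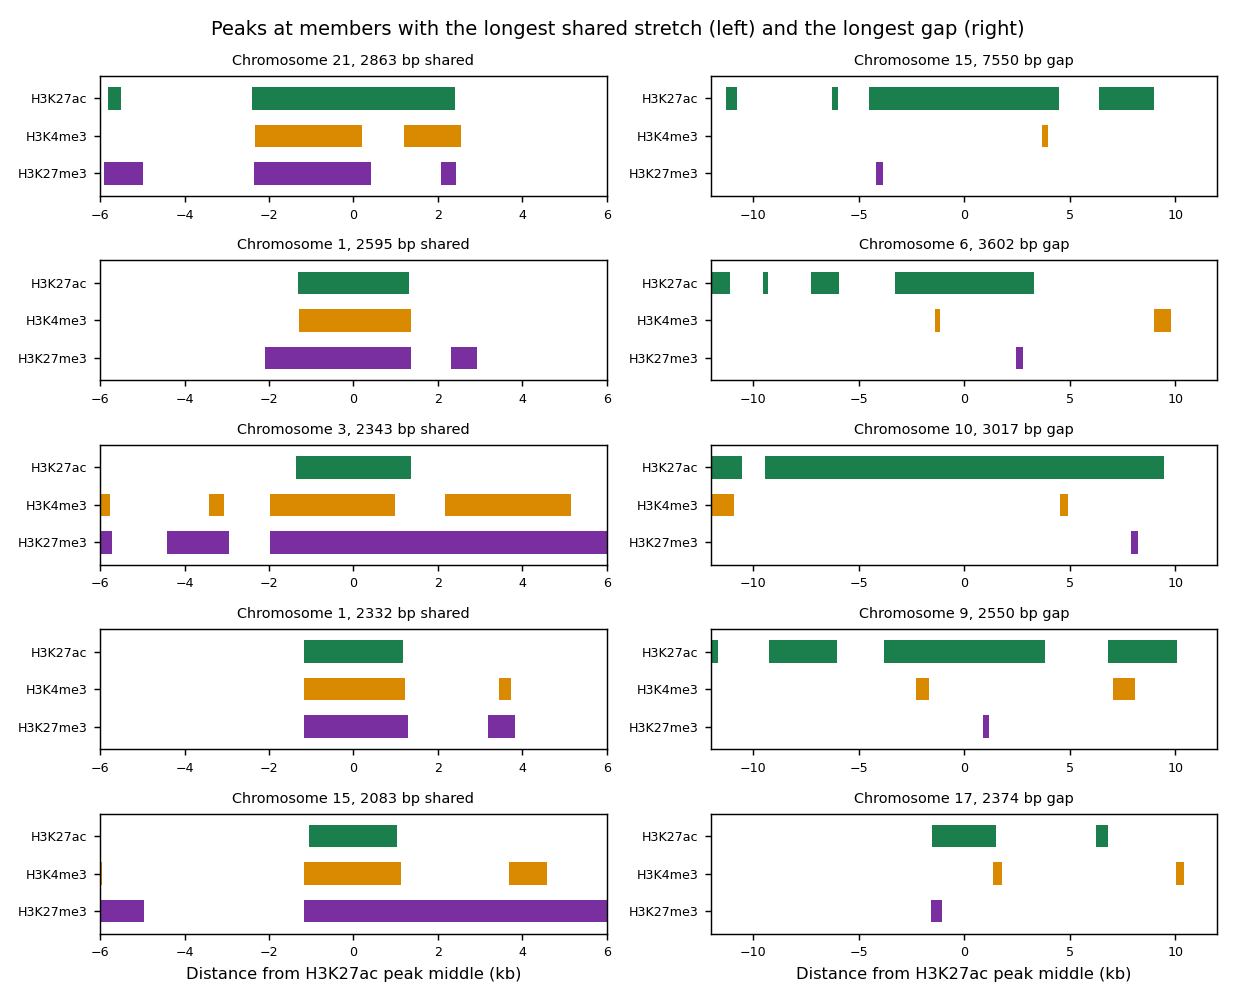
Peaks of H3K27ac (green), H3K4me3 (orange) and H3K27me3 (purple) as bars against the distance in kb from the middle of the H3K27ac peak, for the 5 triple-marked peaks with the greatest shared length, summed over stretches (left), and the 5 with the longest gap (right). On the left all 3 marks lie over one another for 2083 to 2863 bp in total, whereas on the right short peaks of the other marks sit 2374 to 7550 bp apart under wide H3K27ac peaks.

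In H3K27ac enrichment, triple-marked peaks lay a little above the H3K27ac list as a whole, whose median fold enrichment was 2.66, and below the peaks with H3K4me3 alone. The median fold enrichment of H3K27ac was 2.78 (interval 2.75 to 2.81, quartiles 2.51 and 3.17, n = 1599). It was 2.83 (2.82 to 2.85, n = 7545) at peaks with H3K4me3 alone, 2.67 (2.64 to 2.69, n = 2456) at peaks with H3K27me3 alone and 2.62 (n = 31816) at peaks with neither mark, so that triple-marked peaks lay between the classes with 1 other mark. A fold enrichment of at least 4 was reached by 78 of 1599 (4.88%), all of them coincident, against a background of 2.98% of all H3K27ac peaks. The share was 7.32% with H3K4me3 alone and 2.04% with H3K27me3 alone. A q-value of at most 0.01 was reached by 1029 (64.4%), against 54% of all H3K27ac peaks. This share was 70.0% with H3K4me3 alone and 51.7% with H3K27me3 alone. The order of triple-marked peaks and those with H3K4me3 alone was turned only among the narrowest, but their intervals overlapped at every width under 2000 bp. Among peaks under 500 bp the median was 2.88 in triple-marked peaks (n = 595) and 2.84 with H3K4me3 alone, with overlapping intervals, and 2.75 with H3K27me3 alone. Among peaks of 2000 bp or more it was 2.88 (interval 2.75 to 2.96, n = 168), and 3.01 (2.97 to 3.04) with H3K4me3 alone. With H3K27me3 alone it was 2.87 (2.77 to 2.92) at that width, level with triple-marked peaks.

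Triple-marked peaks were narrower than H3K27ac peaks with H3K4me3 alone, but close in width to the whole H3K27ac list, with its median of 763 bp. Their median width was 760 bp (interval 695 to 820), against 999 bp (974 to 1024) with H3K4me3 alone, 687.5 bp with H3K27me3 alone and 721.5 bp with neither mark. Peaks of 2000 bp or more made up 10.5% of triple-marked peaks and 20.4% of those with H3K4me3 alone.

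The H3K4me3 and H3K27me3 peaks that met a triple-marked peak were compared with sets of peaks from their own lists. Some of them met a triple-marked peak without meeting the third mark itself. These were counted also in the set with H3K27ac but without the third mark. Those of H3K4me3 had a median fold enrichment of 3.12 (interval 3.08 to 3.15, n = 1617), against 3.04 (3.02 to 3.06) for H3K4me3 peaks with H3K27ac but no H3K27me3, and 2.94 (2.92 to 2.96, n = 3622) for bivalent H3K4me3 peaks, those with H3K27me3 but no H3K27ac. At least 4-fold enrichment was found in 230 (14.2%), against a background of 7.71% of H3K4me3 peaks. The q-value was at most 0.01 in 57.4%, against 42.5%. For H3K27me3, the median was 2.98 (n = 1600) in peaks that met a triple-marked peak, 3.05 (3.03 to 3.09, n = 3333) in those with H3K4me3 but no H3K27ac and 2.80 in those with H3K27ac but no H3K4me3. At least 4-fold enrichment was found in 206 (12.9%), against a background of 8.82%, and a q-value of at most 0.01 in 960 of 1600, against 48% of H3K27me3 peaks. These backgrounds include the H3K27me3 peaks with neither other mark. Among H3K27me3 peaks with H3K4me3, 31.8% met H3K27ac at all enrichments. In the highest decile of H3K27me3 enrichment, from 3.89, 22.2% of 1075 did so, and in the lowest decile 21.5% of 419. The H3K27me3 peaks of triple-marked sites were narrower than those that met H3K4me3 alone, at 597 bp (565 to 653) against 797 bp (760 to 834).

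Across the 1523 trios, the enrichments of the 3 marks rose together only loosely. Spearman's rho was 0.39 for H3K27ac with H3K4me3, 0.29 for H3K27ac with H3K27me3 and 0.44 for H3K4me3 with H3K27me3, and Pearson's r of the log2 values was 0.42, 0.24 and 0.47. These are descriptions over genomic sites that share their position and base composition, not over samples. At sites with only a pair of marks, rho was 0.41 for H3K27ac with H3K4me3, 0.39 for H3K27ac with H3K27me3 and 0.36 for H3K4me3 with H3K27me3. The lowest of the values at trios was that of H3K27ac with H3K27me3, and whether it differs from the value at paired sites was not tested. In the 244 narrow trios it was 0.37, near the 0.38 for H3K27ac with H3K4me3, and 0.42 was found for H3K4me3 with H3K27me3. The other 1279 trios had 0.26, 0.39 and 0.44 in the same order.

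**Figure D2:**
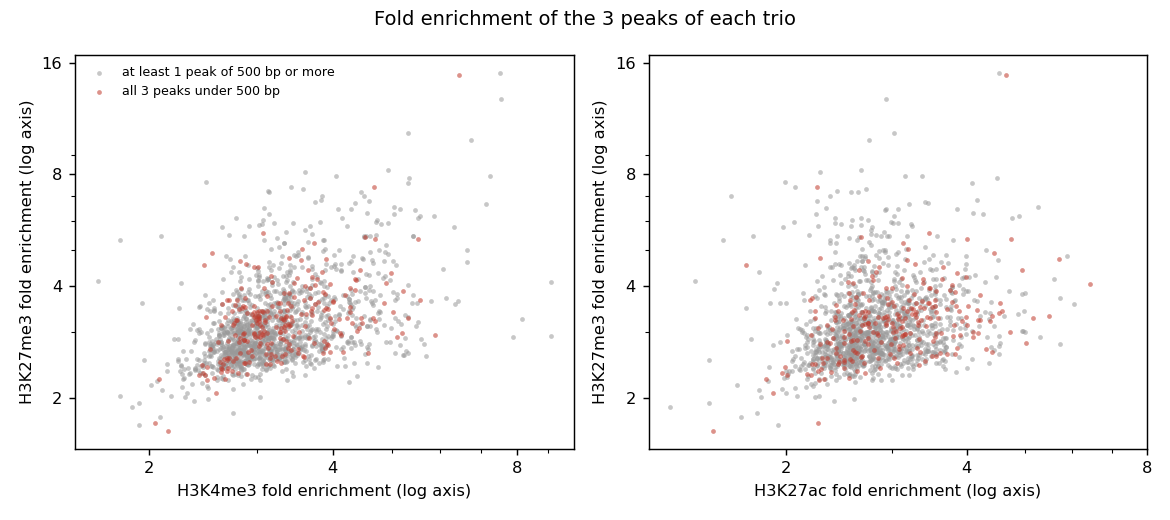
Fold enrichment of H3K27me3 against that of H3K4me3 (left) and of H3K27ac (right), on log axes, with 1 point per trio. Red points are the 244 trios with all 3 peaks under 500 bp and grey points the other 1279. The red points overlap the grey ones but have higher medians. For H3K27ac the red and grey medians are 3.001 and 2.76, and for H3K27me3 3.197 and 2.98, with intervals that do not overlap. For H3K4me3 they are 3.22 and 3.12, with overlapping intervals. A pair of trios has an H3K27me3 fold enrichment near 15.

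The 5 triple-marked peaks with the highest H3K27ac enrichment lay on chromosomes 2 and 5. In each of them H3K27me3 was less enriched than H3K27ac, an order that the choice by H3K27ac enrichment favours. Enrichments of different marks come from separate libraries of unknown depth, so their order within a site is only a description. Medians of the whole lists were 2.66 for H3K27ac, 2.96 for H3K4me3 and 2.85 for H3K27me3. The first, on chromosome 5 at 29531041 to 29531374, reached a fold enrichment of 6.41 for H3K27ac, with 3.96 for H3K4me3 and 4.06 for H3K27me3 over peaks of 265 and 264 bp. On chromosome 2 at 146810214 to 146810722, H3K27ac reached 6.05, H3K4me3 6.33 and H3K27me3 3.57. This was the only one of the 5 in which H3K4me3 was more enriched than H3K27ac. An H3K27ac peak of 1100 bp followed, on chromosome 2 at 30156690 to 30157789, with 5.89, 3.31 and 4.80. The remaining sites had an H3K27ac enrichment of 5.72 each, on chromosome 5 at 24897189 to 24897558 over 370 bp and on chromosome 2 at 32580255 to 32580566 over 312 bp. All 5 were coincident, with shared stretches of 161 to 1100 bp.

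Ranked by the geometric mean of the 3 enrichments, the leading site was on chromosome 4 at 65429744 to 65430036, with 4.53 for H3K27ac, 7.500 for H3K4me3 and 15.1 for H3K27me3. It was followed by chromosome 2 at 102636277 to 102636598, with 4.66, 6.44 and 14.8 in the same order, over 3 peaks of 322, 350 and 360 bp. The third, chromosome 7 at 28513546 to 28514000, combined an H3K27ac enrichment of 2.93 with 7.54 for H3K4me3 and 12.7 for H3K27me3. The remaining sites were on chromosome 1 at 170787707 to 170788004 (4.50, 5.33 and 7.80) and at 171901530 to 171901801 (2.75, 6.73 and 9.93). In all 5, H3K27me3 had the highest ratio over background and H3K27ac the lowest, each in its own library. The geometric mean over all coincident peaks was 3.03 in the median, with quartiles of 2.76 and 3.38.

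Few trios had strong enrichment of all 3 marks, but strong peaks were also uncommon within each list. In the H3K27me3 list 8.82% of peaks had 4-fold enrichment or more, in the H3K4me3 list 7.71% and in the H3K27ac list 2.98%. Whether strong peaks met more or less often than these shares would give was not tested. Trios with at least 4-fold enrichment of each mark numbered 15 of 1523, on 9 chromosomes, and 8 of their H3K27ac peaks were under 500 bp. Besides sites already named, they included chromosome 11 at 17357020 to 17358690, where 1669 bp were shared with enrichments of 4.51, 4.64 and 4.69. On chromosome 15 at 1215403 to 1216974, 1572 bp were shared with enrichments of 4.07, 5.31 and 7.58. Narrow examples were chromosome 13 at 15482072 to 15482370 and chromosome 1 at 166428705 to 166428987, where the midpoints of the 3 peaks lay within 3.5 and 7 bp. These sites were chosen after their values had been seen. At the low end, 37 triple-marked peaks (2.31%, interval 1.63 to 3.18) had an H3K27ac enrichment below 2. The share was 1.07% (0.853 to 1.33) with H3K4me3 alone, 1.22% (0.826 to 1.74) with H3K27me3 alone and 1.83% (1.68 to 1.98) with neither mark. The interval of triple-marked peaks overlapped those with H3K27me3 alone and with neither mark. Peaks with neither mark made up 73.3% of H3K27ac peaks on numbered chromosomes.

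To place the members among the lists, the overlaps were read in each direction. H3K27me3 was found at 17.5% (interval 16.7 to 18.3) of the 9144 H3K27ac peaks with H3K4me3 and at 7.17% (6.90 to 7.44) of the 34272 without it. By width, the first share fell from 24.1% (20.9 to 27.5) in the narrowest decile, 251 to 282 bp, to 9.51% (8.07 to 11.1) in the widest. The second fell only from 7.88% (7.03 to 8.80) to 6.24% (5.37 to 7.19). The shares with and without H3K4me3 thus lay closer together in wide peaks, although their intervals did not overlap in any of the 10 deciles. As a share of all H3K27ac peaks, triple-marked peaks varied little with width, between 3.29% and 4.31% per decile. By enrichment they made up 2.81% of the lowest decile and 5.78% of the highest, while the share of peaks with H3K4me3 that also had H3K27me3 went from 20.8% to 14.8%.

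**Figure D3:**
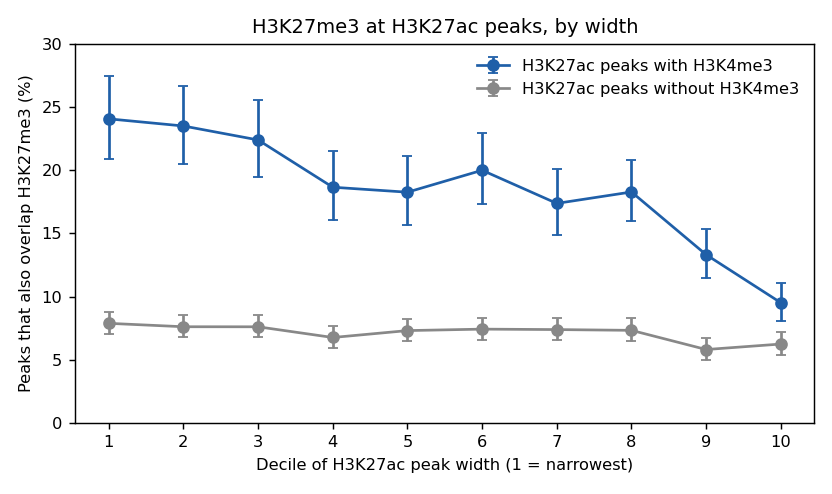
Percent of H3K27ac peaks that overlap H3K27me3, in 10 deciles of H3K27ac width, for peaks with H3K4me3 (blue) and without it (grey); bars are exact 95% intervals. The blue points fall from 24.1% to 9.51% while the grey points stay between 5.80% and 7.88%.

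Seen from the promoter mark, H3K27ac was found at 30.01% (interval 28.8 to 31.3) of the 5175 H3K4me3 peaks with H3K27me3 and at 38.3% (37.6 to 38.9) of the 20133 without it. By width, the shares lay furthest apart in the widest peaks. In the 2 narrowest deciles of H3K4me3 width, up to 268 bp, the shares were 23.4% and 27.01% with H3K27me3 and 25.3% and 26.9% without, with overlapping intervals. In the widest decile, from 1206 bp, H3K27ac was found at 34.6% (31.4 to 37.9) of 850 H3K4me3 peaks with H3K27me3 and at 66.1% (63.8 to 68.4) of 1681 without. By H3K4me3 enrichment, the shares with and without H3K27me3 were 14.2% and 37.5% in the lowest decile and 42.4% and 62.9% in the highest. In deciles 3 to 8 of enrichment the intervals overlapped, and the share with H3K27me3 was the higher in deciles 4 and 6. Counted in bases, 19.4% of the 2.99 Mb under both H3K4me3 and H3K27me3 lay under H3K27ac, against 33.0% of the 13.3 Mb of H3K4me3 outside H3K27me3 and 9.15% of the 13.3 Mb of H3K27me3 outside H3K4me3. Bivalent bases were therefore intermediate in their cover by H3K27ac.

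**Figure D4:**
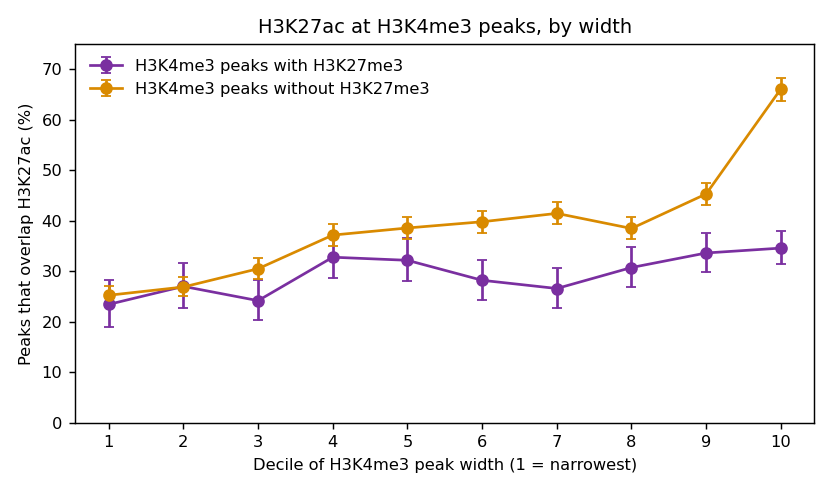
Percent of H3K4me3 peaks that overlap H3K27ac, in 10 deciles of H3K4me3 width, for peaks with H3K27me3 (purple) and without it (orange); bars are exact 95% intervals. The orange points rise from 25.3% to 66.1% with a dip at the decile of 785 to 959 bp, whereas the purple points lie between 23.4% and 34.6%.

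From the repressive mark, H3K27ac was found at 31.8% (30.5 to 33.2) of the 4889 H3K27me3 peaks with H3K4me3 and at 16.6% (16.01 to 17.2) of the 15053 without. The share with H3K4me3 was highest, 41.3%, in the decile of 310 to 369 bp and lowest, 23.7%, in the widest decile, from 1507 bp. On an H3K27me3 peak of 10 kb or more lay 11 of 1599 triple-marked peaks, but only 42 of 19942 H3K27me3 peaks were that wide. A long domain called as several shorter peaks is not counted, so the share in long domains was not measured. Of the 42 H3K27me3 peaks of that width, 9 (21.4%, interval 10.3 to 36.8) met a triple-marked peak, against 8.02% of all H3K27me3 peaks. A longer peak has more room to do so, and whether this accounts for the difference was not tested. Of the 11 triple-marked peaks, 3 lay on a pair of H3K27me3 peaks of 74129 and 47676 bp on chromosome 27, with H3K27ac enrichments of 2.19 to 2.74. The single H3K4me3 peak of 10 kb or more carried 3 triple-marked peaks.

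Among nearby peaks that did not meet the H3K27ac peak, those of H3K27me3 were the only ones to set triple-marked peaks apart from every other class of H3K27ac peaks. A long H3K27me3 domain can be called as several peaks. Such a neighbour may therefore belong to the domain that met the rule, which cannot be told apart here. Another H3K27me3 peak, which did not itself meet the H3K27ac peak, lay within 10 kb of 41.8% of triple-marked peaks (interval 39.3 to 44.2). This was found for 35.4% (33.5 to 37.3) of peaks with H3K27me3 alone, 24.4% (23.4 to 25.4) of those with H3K4me3 alone and 24.8% (24.3 to 25.3) of those with neither mark. Another H3K27ac peak lay within 10 kb of 63.1% (60.7 to 65.5), close to the 64.2% (62.3 to 66.1) of peaks with H3K27me3 alone, and below the 74.1% (73.1 to 75.1) with H3K4me3 alone and the 77.0% (76.5 to 77.4) with neither mark. Another H3K4me3 peak lay within 10 kb of 49.9% (47.4 to 52.4), against 48.9% (47.8 to 50.03) with H3K4me3 alone. Separated peaks had another H3K27me3 peak within 10 kb in 32.9% (23.1 to 43.98) and coincident peaks in 42.3% (39.8 to 44.8), with overlapping intervals.

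The cover by each mark along the flanks was also recorded. It counts all peaks, including the H3K4me3 and H3K27me3 peaks that chose the members, so it adds no separate evidence to the shares of other peaks. At 5 kb from the middle of the H3K27ac peak, H3K27me3 covered 6.13% of triple-marked sites, 2.81% of those with H3K27me3 alone and 0.954% of those with H3K4me3 alone. At 10 kb the values were 4.82%, 2.73% and 1.29%. H3K27ac covered 6.32% of triple-marked sites at 5 kb, against 11.4% with H3K4me3 alone and 12.1% with neither mark. H3K4me3 covered 3.596% of triple-marked sites at 5 kb and 2.63% with H3K4me3 alone.

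**Figure D5:**
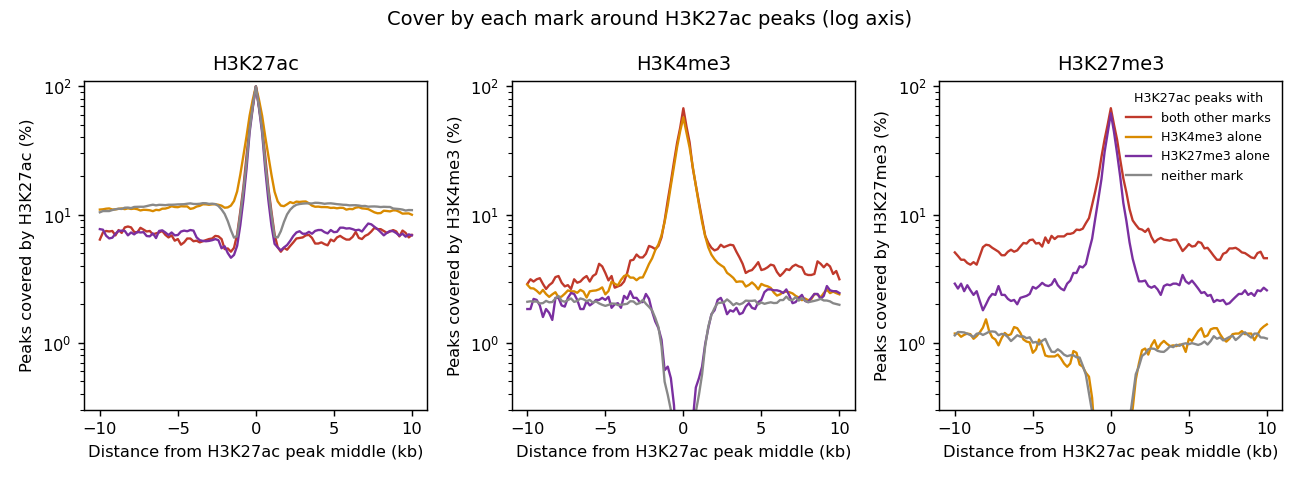
Percent of H3K27ac peaks covered by H3K27ac, H3K4me3 and H3K27me3 (left to right, log axis) against the distance in kb from the middle of the H3K27ac peak, for triple-marked peaks (red) and those with H3K4me3 alone, H3K27me3 alone or neither mark. All peaks are counted, including those that chose the members. Beyond the peak itself, the red line is the highest for H3K27me3 (6.13% at 5 kb) and runs with that of H3K27me3 alone, below the other classes, for H3K27ac.

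Triple-marked peaks were spread over the genome. They were found on 31 of 32 numbered chromosomes, and 1457 of them stood alone when members within 10 kb were joined into 1518 groups. Of the other groups, 47 held 2 members, 10 held 3, 3 held 4 and 1 held 6. Whether members lay near each other more often than their share of H3K27ac peaks gives was not tested. The 5 chromosomes of 50 Mb or more held 907, or 4.15% (3.89 to 4.42) of their H3K27ac peaks, against 3.22% (2.88 to 3.58) on the 7 chromosomes of 20 to 50 Mb and 3.20% (2.89 to 3.54) on the 20 smaller ones. The share of peaks with H3K4me3 that also had H3K27me3 fell in the same order, from 19.6% (18.5 to 20.8) to 16.2% (14.6 to 17.9) and 14.6% (13.2 to 16.03). H3K27me3 peaks per H3K27ac peak also differed, from 0.366 to 0.653 on the 5 largest chromosomes and from 0.314 to 0.414 on the next 7. On the 20 smaller ones they ranged from 0.181 to 4.02. Whether the shares follow this ratio was not tested. Per length the order was the opposite, with 1.49, 1.71 and 2.28 triple-marked peaks per Mb. The shares above set the same counts against all H3K27ac peaks of each chromosome group, which numbered 21868, 10063 and 11485. Among the 22 chromosomes with at least 20 of them, the share was lowest on chromosome 14, at 2.19%, and highest on chromosome 2, at 4.92%.

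The group with the most members lay on chromosome 2 at 32576498 to 32598472, where 6 coincident peaks stood within 22.0 kb and were the only H3K27ac peaks of the window. H3K27me3 covered 47.6% of it with 9 peaks and H3K4me3 36.2% with 8. H3K27ac peaks of 284 and 312 bp at one end had enrichments of 5.27 and 5.72, and the remaining 4 had 2.11 to 2.79. The last of them, at 32596811 to 32598472, lay with all its 1662 bp under an H3K4me3 peak of 4357 bp and an H3K27me3 peak of 6175 bp. No peak is assigned to a gene here, because no annotation of this genome build was used.

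Groups of 4 members were found at 3 places. That on chromosome 1 at 4961112 to 4974698 was built on the single H3K4me3 peak above 10 kb, an 11589 bp domain with an enrichment of 5.31. H3K27ac peaks of 843 to 1217 bp at 3 positions in it met H3K27me3 peaks of 259 to 2104 bp, and the highest of their H3K27ac enrichments was 3.89. The group on chromosome 1 at 20110 to 42588 lay near the first bases of the chromosome, with low H3K27ac enrichments of 1.88 to 2.37 and 51.4% of the window under H3K27me3. The q-values of its members were not weak, with a −log10 of 2.54 to 9.13 against a median of 2.42 over triple-marked peaks. The third group, on chromosome 9 at 17012671 to 17026976, shared its size with these and had H3K27ac enrichments of 2.97 to 3.21.

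Few members lay near the limit of the rule. The smaller of the overlaps with the other marks was at most 10 bp in 7 triple-marked peaks and at most 100 bp in 88 (5.50%), with a minimum of 2 bp and a median of 281 bp. Just outside, 19 H3K27ac peaks had both other marks within 100 bp but did not meet both, 10 of them lacking contact with H3K27me3 and 9 with H3K4me3. The members with a smaller overlap of at most 100 bp had a median width of 784.5 bp and a median enrichment of 2.59, and the 19 peaks outside 493 bp and 2.49. Within a distance of 1000 bp, 204 peaks stood outside the rule. The number of triple-marked peaks depended more on the limits of the peak lists, and fell to 476 when each list was restricted to q-values up to 0.01 and to 15 at 4-fold enrichment or more. H3K27ac cover of the bases common to H3K4me3 and H3K27me3 fell from 19.4% to 12.6% and 4.64% under these limits.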

How the data were processed

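ChIPseq reads were processed by the authors with the default NF-core pipeline, with trimming by Trim Galore, alignment by BWA to GalGal6 (galGal6 in the submitters' processing notes) and broad peak calling by MACS2 at a false discovery rate under 0.1, with 1 list per library and no pooling stated. Whether the input served as control is not given in the sources used here. The deposited fold enrichment is a linear ratio over local background, and beside it the authors' files hold the p-value and the q-value of each peak as −log10. The deposited score follows the q-value and was not used.

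Groups followed the sample titles. Starts are printed 1-based. Overlap, arrangement, flank and chromosome values were computed with Python 3.11.15, NumPy 2.4.6, pandas 2.3.3 and SciPy 1.17.1, and the overlap code was tested on simulated data and against bedtools 2.31.1. Shares of peaks carry exact Clopper-Pearson and medians exact order-statistic 95% intervals, and shares of bases carry none. Chromosome length was taken as the largest peak end. Sex chromosomes and unplaced sequences were left out of the main comparisons. Deciles are 10 groups of equal size. Sites were named as the 5 with the greatest shared length (summed over stretches), the highest H3K27ac enrichment, the highest geometric mean of the 3 enrichments and the longest gap, and the 3 groups with the most members. The values were recomputed with lists limited to a q-value up to 0.01, with lists limited to 4-fold enrichment or more, with an overlap of 100 bp or of 50% of the shorter peak, with equal numbers of peaks per mark, and with all sequences. The members, rules and comparisons were chosen with earlier results of these data known. A genome sequence or annotation of GalGal6 was not used here, so no sequence is shown and no peak is assigned to a gene.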

Additional observations from a re-analysis of the deposited data

Results flagged for a closer look

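Outside the numbered chromosomes, 76 of 2010 H3K27ac peaks (3.78%, exact 95% interval 2.99 to 4.71) also carried both other marks. They were marked for a closer look because they lie in sequences that the comparisons did not use. Chromosome Z held 65 of them, 3.36% (2.61 to 4.27) of its 1932 H3K27ac peaks, chromosome W 2 of 32, and unplaced sequences 9 of 46 (19.6%, 9.36 to 33.9).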

How the results depend on the processing

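Of 56 values recomputed under 6 alternatives, 19 stayed within the interval of the value reported, or within 1.5 times it for counts, and 37 did not. For the shares of bases, the interval used for this count took stretches or peaks as independent counts. It does not measure the error of a share of bases. When every list was limited to q-values up to 0.01, 476 H3K27ac peaks (2.03%) carried both other marks and 97.7% of them were coincident, with medians of 633 bp for width, 3.04 for fold enrichment and 295 bp for the shared stretch. H3K27me3 was then found at 12.6% of H3K27ac peaks with H3K4me3 and 4.03% without, and H3K27ac covered 12.6% of the bases common to H3K4me3 and H3K27me3 and 37.7% of H3K4me3 bases outside H3K27me3. With at least 4-fold enrichment, the same values in that order were 15, 1.16%, 100%, 353 bp, 4.51, 297 bp, 5.47%, 1.77%, 4.64% and 15.1%. An overlap of 100 bp gave a share of 3.48% for triple-marked peaks and 6.82% for H3K27me3 without H3K4me3. An overlap of 50% of the shorter peak gave 3.04% triple-marked and 96.3% coincident, with medians of 691 bp, 2.81 and 293 bp, and H3K27me3 at 16.2% with H3K4me3 and 6.30% without. With equal numbers of peaks per mark, 827 peaks (4.15%) were triple-marked, with medians of 655 bp and 3.13, H3K27me3 at 8.18% without H3K4me3, and H3K27ac on 14.0% of common bases and 24.4% of other H3K4me3 bases. With all sequences, H3K27ac covered 17.1% of common bases. The cause of these shifts was not tested, beyond the stricter limits leaving fewer peaks. H3K27me3 was more frequent with H3K4me3 than without in 6 of 6 alternatives, by 2.06 to 3.14 times, and H3K27ac covered more of the H3K4me3 bases outside H3K27me3 than of common bases in 4 of 4, by 1.74 to 3.25 times. No paired analysis was possible because each mark has 1 library. Depth was unknown, so that a mark missing from a peak may be a peak that was not called.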
